A study of Rattus norvegicus with 7 samples.

Results

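The miR-23, miR-27 and miR-24 microRNAs (miRNAs) come from a pair of twin gene clusters, 23a/27a/24-2 and 23b/27b/24-1. Their mature forms on the arrays were taken by name: rno-miR-23a-3p, rno-miR-27a-3p and rno-miR-24-2-5p from the first cluster, rno-miR-23b-3p, rno-miR-27b-3p and rno-miR-24-1-5p from its twin, and rno-miR-24-3p, which both clusters make. The prefix for rat is left out below. These 7 miRNAs had 18 of the 1730 probes and were 7 of the 719 miRNAs on the arrays. Small RNA was measured in total RNA of RSkMC, primary cells bought from a culture collection that come from limb muscle of newborn rats, grown to near confluence and then kept in low-serum medium so that myoblasts could fuse. All samples were harvested on day 11 of differentiation. The 3 control samples were untreated, and the 4 IL-6 samples had 1 ng/ml of recombinant interleukin-6 (IL-6), which working muscle secretes as a signal to other tissues. Titles and series design give these groups, while the growth text of every sample, controls included, names IL-6. Each sample was labelled with Cy3 on its own 1-colour array.

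A miRNA is cut from the arm of a hairpin, loaded into an Argonaute protein, and pairs with messenger RNAs mainly through its seed, bases 2 to 8, lowering their translation and stability. miR-23a represses the ubiquitin ligases MAFbx and MuRF1, which drive muscle wasting, in mouse muscle. miR-27 represses Pax3, which keeps muscle progenitors from differentiating, and myostatin, which limits muscle growth, both shown in mouse. miR-24 promotes differentiation of mouse myoblasts, where TGF-beta represses it through Smad3.

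The mature sequences are shown because the twins share their seeds and differ near the 3′ end. They are from RefSeq (GRCr8), 5′ to 3′, with the seed in capitals.
miR-23a-3p: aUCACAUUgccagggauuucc
miR-23b-3p: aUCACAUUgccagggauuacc
miR-27a-3p: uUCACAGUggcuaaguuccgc
miR-27b-3p: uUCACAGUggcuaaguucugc
miR-24-2-5p: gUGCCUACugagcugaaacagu
miR-24-1-5p: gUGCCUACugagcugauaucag
miR-24-3p: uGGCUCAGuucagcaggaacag
Counted from 1 at the 5′ end, miR-23a-3p and miR-23b-3p differ by U19A and are otherwise identical over 21 bases. miR-27a-3p and miR-27b-3p differ by C19U alone. The 5p arms of the miR-24 hairpins share their first 16 bases and differ at 5 positions after them. Each seed pair was found in no other miRNA of the array, among the 651 of 719 that matched a RefSeq mature sequence, and the seed of miR-24-3p belonged to it alone.

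The 3 genes of the 23a/27a/24-2 cluster lie within 389 bases at chr19:40859455-40859843 (GRCr8, minus strand), where the RefSeq gene table lists no other gene. The twin cluster spans 814 bases at chr17:1818669-1819482 on the minus strand, inside the span of the protein-coding gene Aopep (chr17:1817001-2133008). The end of Fancc at position 1818672 reaches into its last bases, and Mir3074 overlaps Mir24-1. The table gives gene spans and no exons, so whether the hairpins are exonic or intronic is not given here. The hairpins Mir24-1 and Mir24-2 are printed with both mature arms in capitals, since the first arm tells the clusters apart and the second is the same in both.
Mir24-1: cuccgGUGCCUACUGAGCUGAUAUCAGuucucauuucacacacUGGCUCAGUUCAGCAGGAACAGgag
Mir24-2: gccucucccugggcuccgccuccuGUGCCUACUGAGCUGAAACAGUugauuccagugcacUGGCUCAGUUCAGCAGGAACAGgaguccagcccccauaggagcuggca
A miR-24-3p signal is therefore the sum over both clusters.

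The array probes are DNA complements of the 3′ end of a miRNA, and the brightest probe of each miRNA carries its values. Probe letters are from the deposited scanner files, with the base opposite the twins' difference in capitals for miR-23 and miR-27, and the bases beyond the shortest probe in capitals for the 5p arms of miR-24.
miR-23a-3p probe: ggAaatccctggcaatgt
miR-23b-3p probe: ggTaatccctggcaatgt
miR-27a-3p probe: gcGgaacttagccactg
miR-27b-3p probe: gcAgaacttagccactgt
miR-24-2-5p probe: actgtttcagctcaGTA
miR-24-1-5p probe: ctgatatcagctcagTAG
miR-24-3p probe: ctgttcctgctgaactga
A twin probe has 1 mismatch to the other twin, so near-identical miRNAs can share signal and each value may hold part of its twin's. The 18-base miR-27b-3p probe covers 1 base more of its miRNA than the 17-base miR-27a-3p probe.

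The arrays had 174 to 185 miRNAs detected on control samples and 179 to 207 on IL-6 samples, and 181 miRNAs were tested. All arrays shared 1 slide and 1 scan time, with control samples in 1 slide row and IL-6 samples in the other, so the effect of slide row cannot be told apart from that of IL-6. The labels do not say that the samples of a group were separate cultures, so p-values measure the spread between these samples only. The defining miRNAs of skeletal muscle (miR-206-3p, miR-1-3p, both miR-133 forms, miR-499-5p and miR-208b-3p) were detected on no array, with a highest probe signal of 9.23 intensity units against 12.9 for the lowest signal called well above background. All 5 fibroblast and smooth muscle markers were detected, with a summed scaled signal of 23367 to 25106 units in control and 20799 to 24089 in IL-6 samples. Of these, miR-199a-3p, miR-199a-5p and miR-214-3p are also on the list of miRNAs with a known role in muscle cells that is read below. None of the 5 passed the test, and their part in the members' values was not tested. Endothelial and epithelial markers were detected on no array, and of the blood markers miR-223-3p was detected, on 1 array. Of the nerve markers, miR-128-3p and miR-218a-5p were detected on all 7 arrays, and miR-9a-5p and miR-124-3p on no array.

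With IL-6, no member passed the test. Of the 7 miRNAs, 6 were detected on every array and tested, and 0 of the 6 reached a Benjamini-Hochberg adjusted p of 0.05 in limma, against 9.39% of all tested miRNAs (4.97% higher and 4.42% lower). miR-23a-3p, miR-23b-3p, miR-27b-3p and miR-24-3p had group means that differed from control by -8.81% to -6.81%, miR-27a-3p by 1.41% and miR-24-2-5p by 12.5%, where the first 4 turned positive with spike-in scaling, no scaling and the deposited value table. Among all tested miRNAs 42.5% lay below control by group mean. Signals were compared as scaled log2 intensity, in which each array was divided by its 75th percentile over well-measured probes. In RNA from whole cultures, fewer cells of a type and less of a miRNA per cell cannot be told apart.

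miR-23a-3p read 12.81, 12.81 and 12.84 on the control arrays and 12.56, 12.70, 12.76 and 12.79 on the IL-6 arrays, in scaled log2 intensity. Every IL-6 array lay below every control array, with IL-6 replicate 1 the lowest, and the closest pair was 0.02 apart. Among all tested miRNAs the groups did not overlap for 22.1%, and for 10.5% with IL-6 the lower. The log2 fold change was -0.12 ± 0.06 (SE, 3 and 4 arrays, 95% interval -0.26 to 0.02), with a limma adjusted p of 0.254. The control arrays were tight, with an SD of 0.02 against a median of 0.07 over all tested miRNAs, and the IL-6 SD of 0.10 stood against a median of 0.09.

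For miR-27a-3p the control arrays read 11.09, 11.20 and 11.39, and the IL-6 arrays 11.05, 11.27, 11.35 and 11.31. The groups overlapped, with the lowest value on IL-6 replicate 1 and the highest on control replicate 3. Its log2 fold change was 0.02 ± 0.10 (SE, 95% interval -0.22 to 0.26), with a limma adjusted p of 0.909. The sign turned in 8 of 28 alternatives, but these were not independent. Other floors and filters, a variance model without array weights, and an exact permutation test of the same difference could not change the fold change. Blocks by slide column and by replicate repeated the values of leaving out IL-6 replicates 2 and 4. The spread of miR-27a-3p was the wider of the cluster's pair of 3p arms, with an SD of 0.15 in control and 0.13 with IL-6.

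miR-24-2-5p, the arm that marks the 24-2 hairpin, was the dim member: its brightest probe had unscaled signals of 92.3 to 166 intensity units, against 5316 to 8331 for that of miR-23a-3p. Probe brightness depends on the probe as well as on the miRNA, so these units give no order of abundance. In scaled log2 intensity it read 6.76, 6.91 and 7.08 on the control arrays and 7.05, 7.06, 7.10 and 7.13 on the IL-6 arrays. The IL-6 arrays were close together, with an SD of 0.04, and lay above control replicates 1 and 2, but control replicate 3 lay among them. The log2 fold change was 0.17 ± 0.07 (SE, 95% interval -0.01 to 0.35), with a limma adjusted p of 0.217.

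**Figure D1:**
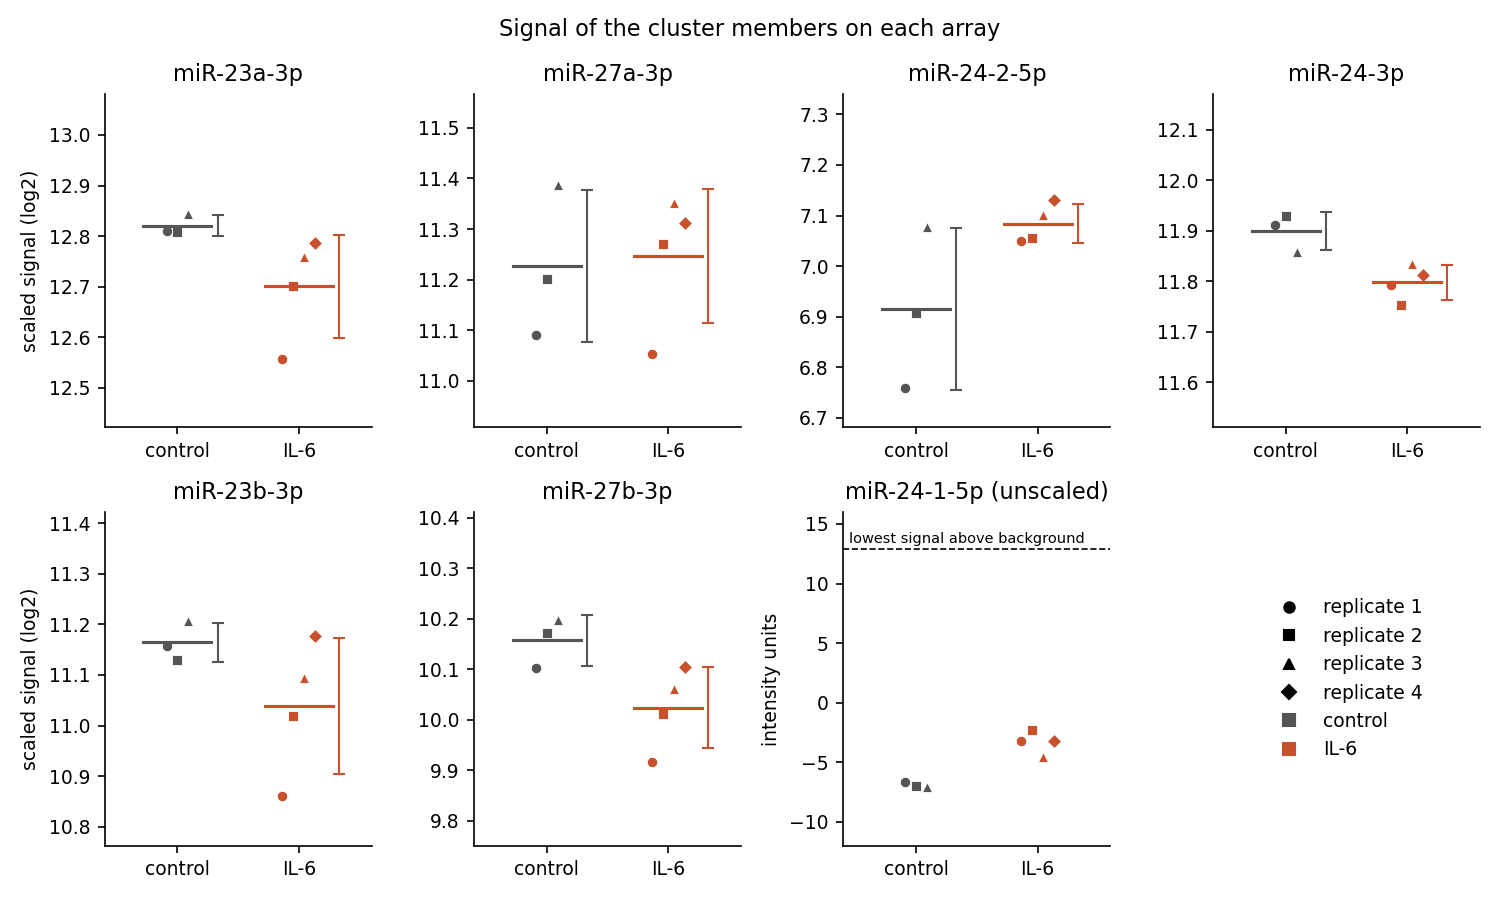
Each panel plots 1 miRNA by group, as scaled log2 intensity for 6 members and as unscaled intensity units of the brightest probe for miR-24-1-5p; points are arrays, shaped by replicate number, lines are group means and bars are ± 1 SD (3 control and 4 IL-6 arrays). Control and IL-6 points are apart for miR-23a-3p and miR-24-3p, overlap for miR-27a-3p, miR-24-2-5p, miR-23b-3p and miR-27b-3p, and lie below the dashed line of the lowest signal above background (12.9 units) for miR-24-1-5p.

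In the twin cluster, miR-23b-3p read 11.16, 11.13 and 11.21 on the control arrays and 10.86, 11.02, 11.09 and 11.18 on the IL-6 arrays. IL-6 replicates 1 to 3 lay below all controls, and IL-6 replicate 4 lay within the control range. The log2 fold change was -0.13 ± 0.08 (SE, 95% interval -0.31 to 0.06), with a limma adjusted p of 0.364.

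miR-27b-3p read 10.102, 10.172 and 10.198 on the control arrays and 9.917, 10.012, 10.061 and 10.105 on the IL-6 arrays. The highest IL-6 array, replicate 4, passed the lowest control array, replicate 1, by 0.0030, and the groups were otherwise apart. The log2 fold change was -0.13 ± 0.05 (SE, 95% interval -0.26 to -0.01). Its limma p was 0.0396 before adjustment and 0.154 after Benjamini-Hochberg adjustment over the 181 miRNAs, and an unadjusted p under 0.05 with a lower IL-6 mean was found for 11.0% of all tested miRNAs. Leaving out 1 array at a time gave limma adjusted p-values of 0.139 to 0.395.

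miR-24-1-5p, the arm that would mark the 24-1 hairpin, was detected on no array. All 4 of its probes read below 0 on every array after background subtraction, from -7.57 to -2.04 intensity units, and no change could be measured. The first 10 bases of each of these probes, ctgatatcag, are their own reverse complement. Whether this bears on the signal was not tested.

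The other arms and the neighbour of these hairpins were also below background. miR-23a-5p, miR-23b-5p, miR-27a-5p, miR-27b-5p and miR-3074 had 14 probes, none of them well above background on any array, and their highest signal was 4.10 intensity units. Of the 5p arms of the clusters, miR-24-2-5p was thus the one detected.

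miR-24-3p, the arm that both clusters make, read 11.91, 11.93 and 11.86 on the control arrays and 11.79, 11.75, 11.83 and 11.81 on the IL-6 arrays. All IL-6 arrays lay below all control arrays, with 0.02 between the closest pair, and both groups were tight, with SDs of 0.04 and 0.03. Such a lack of overlap with IL-6 the lower was found for 10.5% of all tested miRNAs. Without scaling the groups overlapped, at 3281 to 3719 units in control and 3129 to 4317 with IL-6. The log2 fold change was -0.10 ± 0.03 (SE, 95% interval -0.17 to -0.03), or -6.81%, with a limma adjusted p of 0.0839. The exact permutation test gave a two-sided p of 0.0286, the smallest that 35 splits of the arrays allow, and 0.199 after adjustment over all tested miRNAs. For any miRNA to pass that adjustment, most of those tested would have had to reach the smallest p, so the 0.199 decides nothing. In limma the miR-24-3p call missed the threshold, and the range of its adjusted p was 0.0230 to 1 over the alternatives tried. It passed with outlier-flagged spots kept (log2 fold change -0.13, limma adjusted p 0.0230) and with array weights (-0.11, limma adjusted p 0.0348). Its sign turned with spike-in scaling (0.084), no scaling (0.076) and the deposited value table (0.083).

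**Figure D2:**
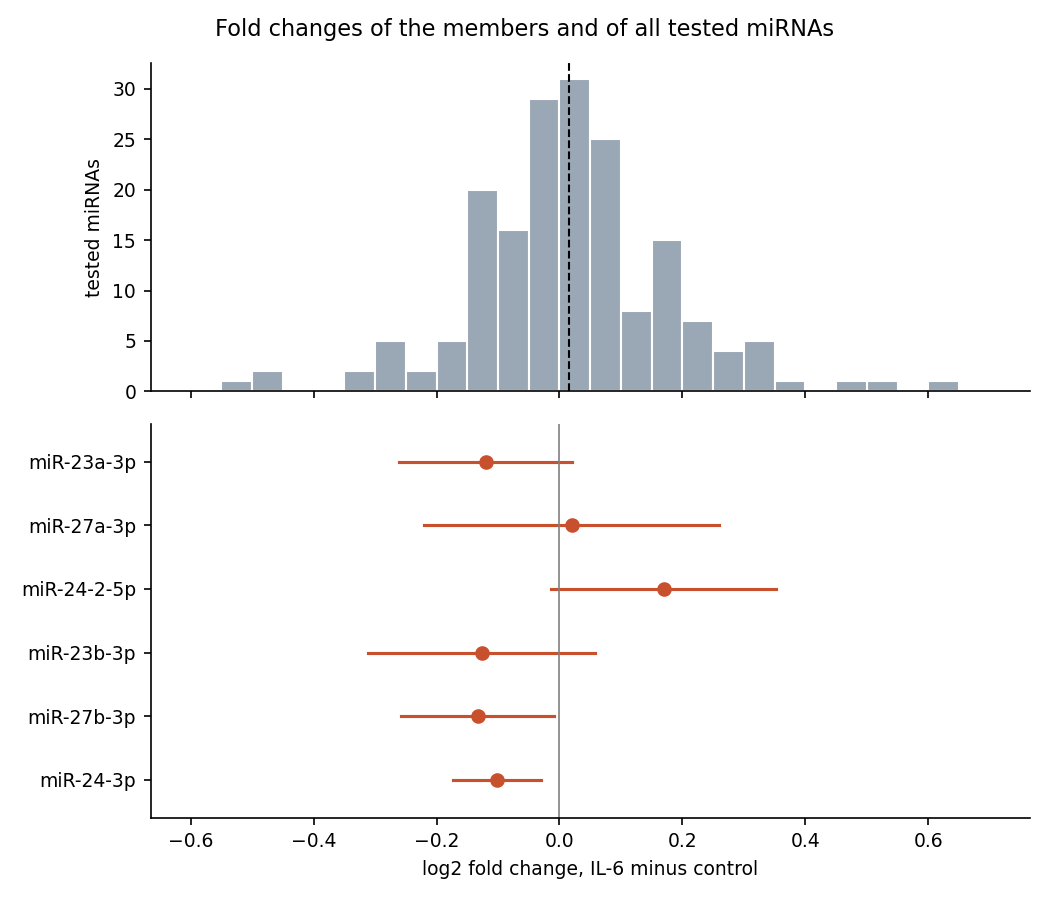
The upper panel is a histogram of the log2 fold changes (IL-6 minus control) of the 181 tested miRNAs with their median of 0.02 dashed, and the lower panel gives the fold change of each tested member with its 95% interval. The intervals of miR-27b-3p and miR-24-3p lie below 0 before any adjustment over miRNAs, and those of the other members include 0, under the main scaling; 4 members turned positive under 3 other settings.

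The probes of a member gave differences of the same sign. On the shorter probes well above background on all arrays the log2 difference between groups was -0.13 for miR-23a-3p, 0.07 for miR-27a-3p, -0.17 for miR-23b-3p, -0.14 for miR-27b-3p and -0.08 for miR-24-3p. In each case the sign was that of the brightest probe. Under the main scaling the 17-base probe of miR-23b-3p and miR-27b-3p had groups that did not overlap, where the 18-base probe had overlap. For miR-24-3p the reverse held. The closest pair of arrays on these 17-base probes differed, IL-6 minus control, by -0.0186 for miR-23b-3p and -0.0028 for miR-27b-3p. By their brightest probe, 22.1% of all tested miRNAs had groups without overlap, 10.5% with IL-6 the lower.

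The 4 probes of miR-24-2-5p are nested, and their signal followed their length. The 14-base probe was well above background on no array, the 15-base probe on 5 arrays, and the 16-base and 17-base probes on all 7. Unscaled signals ran from -4.80 to 1.61 units on the shortest probe, from 15.6 to 31.6 on the next, from 66.1 to 113 on the 16-base probe and from 92.3 to 166 on the longest. The last 3 had log2 differences between groups of 0.36, 0.17 and 0.17. The largest of these comes from a probe close to the floor of 15.7 units.

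**Figure D3:**
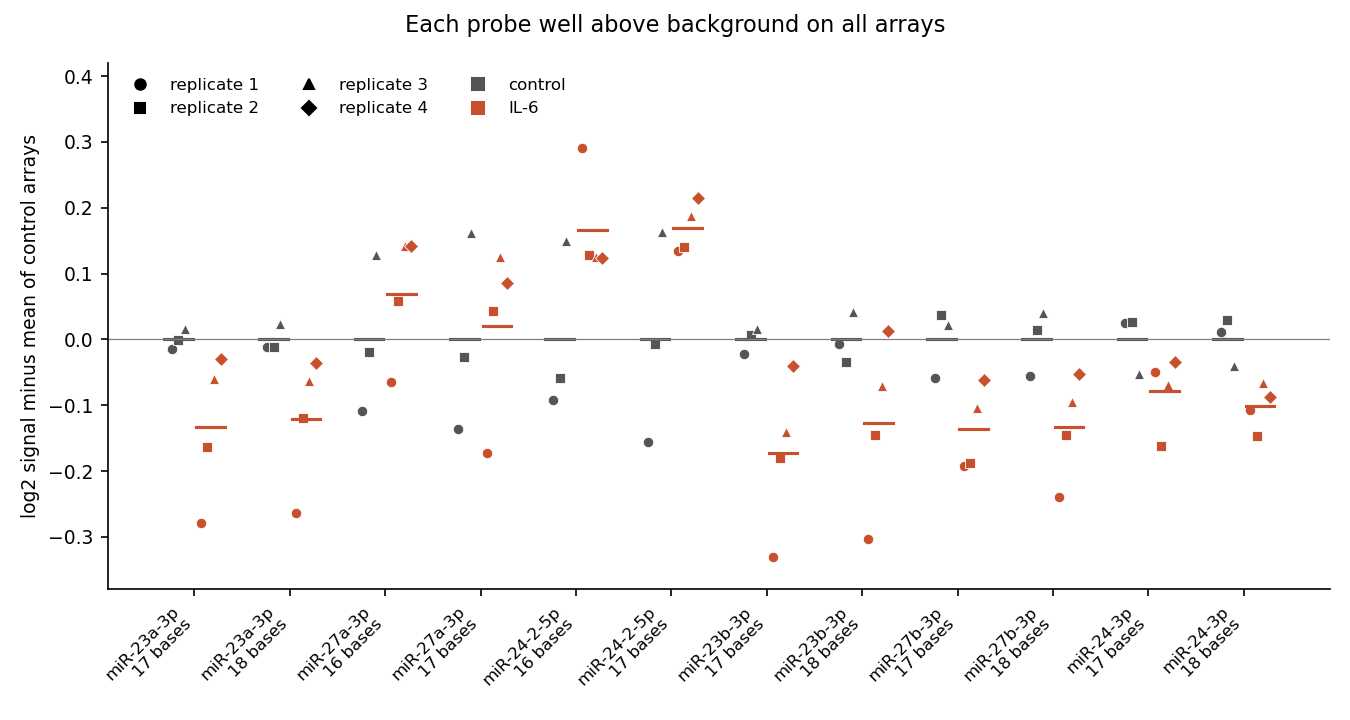
Scaled log2 signal of each member probe well above background on all 7 arrays, minus the probe's mean on the control arrays; points are arrays, shaped by replicate number, and lines are group means. Both probes of a member lie on the same side of 0 by their IL-6 mean, from -0.17 for the 17-base miR-23b-3p probe to 0.17 for the miR-24-2-5p probes.

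To compare the clusters, the ratio of each twin pair was taken within each array, where any scaling by 1 factor per array cancels. The size of such a ratio carries the brightness of the probes, so only its change between groups was read. Both pairs with a measured twin were tested, with p-values adjusted over the 2 pairs.

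The log2 ratio of miR-23a-3p over miR-23b-3p was 1.65, 1.68 and 1.64 on the control arrays and 1.70, 1.68, 1.66 and 1.61 on the IL-6 arrays. Under the main scaling the ratio ranged little over the 7 arrays, and the control values lay inside the IL-6 range. The difference between groups was 0.0063, with an exact two-sided permutation p of 0.8 and the same after adjustment. Across all single-array differences between the groups it ran from -0.07 to 0.06. These values are from 18-base probes, which lie over the same bases of both miRNAs, as the 17-base probes also do. With the 17-base probes the difference was 0.04, the groups did not overlap and the exact permutation p was 0.114. Quantile normalization, which is no single factor per array, gave 0.081.

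For miR-27a-3p over miR-27b-3p the log2 ratio was 0.99, 1.03 and 1.19 on the control arrays and 1.14, 1.26, 1.29 and 1.21 on the IL-6 arrays. IL-6 arrays tended to the higher values, but IL-6 replicate 1 lay below control replicate 3, so the groups overlapped. The difference was 0.15, which is 11.2% higher, with SDs of 0.11 and 0.07, an exact two-sided permutation p of 0.114 and an adjusted p of 0.229. The difference was 0.16 on 17-base probes of both, again with an exact permutation p of 0.114. It stayed above 0 in 20 of 20 alternatives, from 0.11 to 0.26, but these were not independent. Both floor settings could not change it, and keeping outlier spots or taking the deposited value table returned the main value of 0.153. The slide column block gave the same value as leaving out IL-6 replicate 2, and the replicate block the same as leaving out IL-6 replicate 4. A single pair could not pass this test: the smallest exact permutation p of 0.0286 becomes 0.0571 when adjusted over 2 pairs, so the p-values do not tell whether 1 cluster alone changed.

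Slide columns held arrays of both groups in 3 cases: control replicate 1 with IL-6 replicate 1, control replicate 2 with IL-6 replicate 3, and control replicate 3 with IL-6 replicate 4. Deviations from the group means correlated at 0.52, 0.19 and 0.13 between the arrays of these pairs. Within these columns, IL-6 minus control in log2 signal was -0.25, -0.05 and -0.06 for miR-23a-3p, and -0.30, -0.04 and -0.03 for miR-23b-3p. It was -0.18, -0.11 and -0.09 for miR-27b-3p, -0.12, -0.10 and -0.05 for miR-24-3p, and 0.29, 0.19 and 0.05 for miR-24-2-5p. Under the main scaling these 5 members thus had 1 sign in all 3 columns, also where the groups as a whole overlapped. So did 46.4% of all tested miRNAs (19.3% with IL-6 the lower). For miR-27a-3p the values were -0.04, 0.15 and -0.08, of mixed sign. Without scaling, miR-24-2-5p kept its sign, while miR-23a-3p, miR-23b-3p, miR-27b-3p and miR-24-3p had mixed signs over the columns. For miR-24-3p the unscaled signals, control then IL-6, were 3281 and 3129, 3702 and 3886, and 3719 and 3781 units. The miR-27 twin ratio differed by 0.15, 0.26 and 0.02 within columns, and the miR-23 twin ratio by 0.04, -0.01 and -0.03. With slide column as a block in limma no member passed: the adjusted p was lowest for miR-27b-3p, at 0.108 (log2 fold change -0.13 ± 0.03 SE). For a ratio, 3 column pairs cannot give an exact permutation p under 0.25.

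Within a cluster, ratios of members chosen after their values were seen are given as a description. miR-27b-3p over miR-23b-3p differed between groups by -0.0065, with overlap. miR-27a-3p over miR-23a-3p differed by 0.14, also with overlap. The 3p arms of miR-23b and miR-27b thus had nearly equal differences between the groups.

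The 5p and 3p arms of miR-24 differed from control by 0.17 and -0.10 under the main scaling, while both were above 0 with spike-in scaling (0.36 and 0.084), no scaling (0.35 and 0.076) and the deposited value table (0.35 and 0.083); their ratio within an array does not depend on such a scaling. The log2 ratio of miR-24-2-5p over miR-24-3p was -5.15, -5.02 and -4.78 on the control arrays and -4.74, -4.70, -4.73 and -4.68 on the IL-6 arrays. All IL-6 arrays lay above all control arrays, by a mean of 0.27 or 20.7%, and control replicate 3 lay closest to them. Most of the spread was in the control group, with an SD of 0.19 against 0.03 with IL-6. miR-24-2-5p over miR-27a-3p, from the same cluster, differed by 0.15 without overlap, and here the control arrays were the tight group, with an SD of 0.02. miR-24-2-5p over miR-23a-3p differed by 0.29, also without overlap. These ratios use the brightest probes. With the 16-base miR-24-2-5p probe instead, the groups overlapped over miR-27a-3p and narrowly over miR-24-3p, and stayed apart over miR-23a-3p. The ratios share miR-24-2-5p and are not separate observations. How often ratios of other pairs show no overlap was not counted. Among single tested miRNAs the groups did not overlap for 22.1%.

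**Figure D4:**
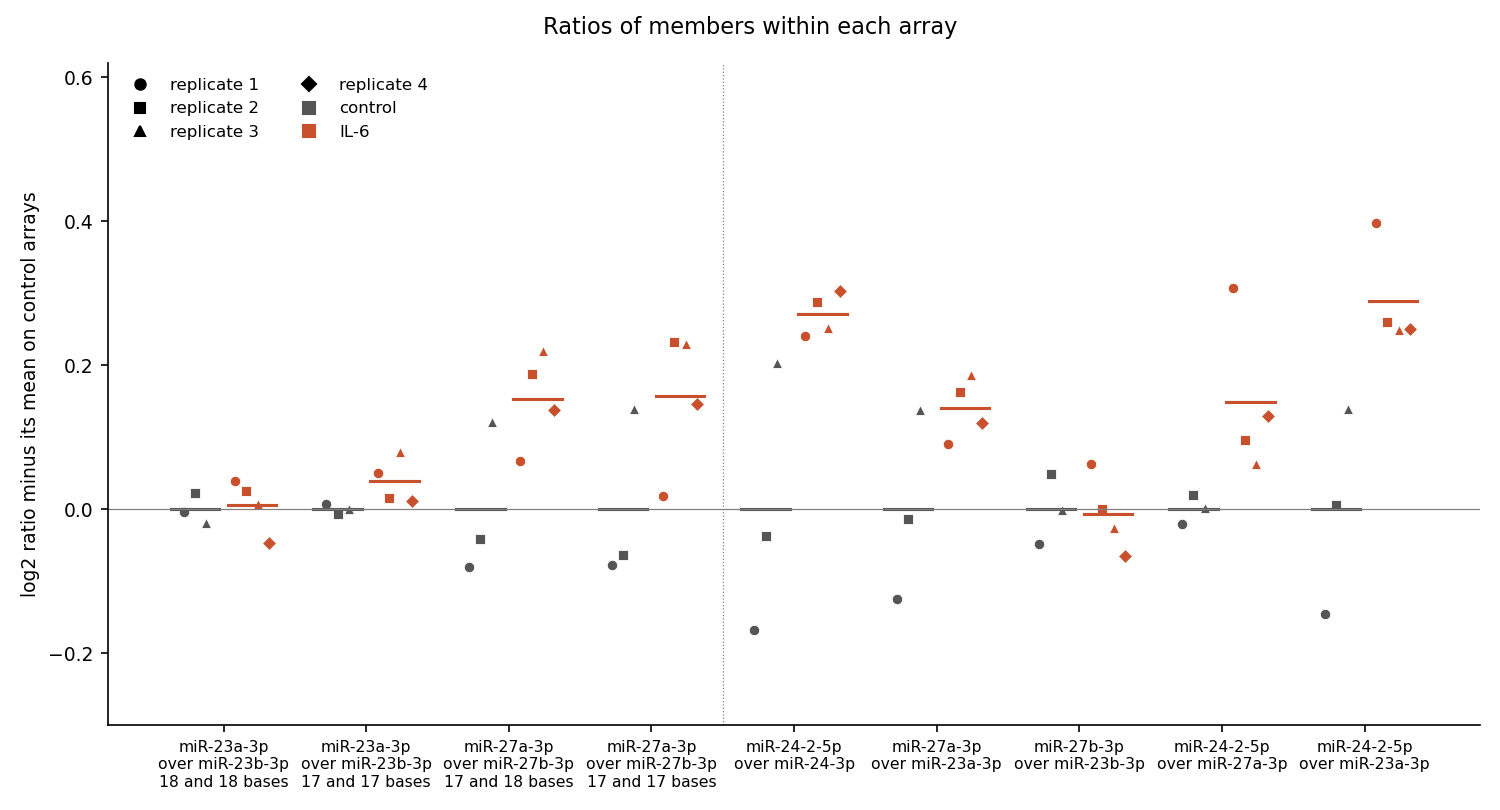
Log2 ratio of pairs of members on each array, minus the mean of that ratio on the control arrays; points are arrays, shaped by replicate number, lines are group means, and the dotted line parts the twin pairs (left, with the probe lengths) from the pairs chosen after their values were seen (right). The miR-23 twins stay near 0, and the miR-27 twins lie at 0.15 and 0.16 with overlap. Taken on the brightest probes, the ratios with miR-24-2-5p lie higher on all IL-6 arrays.

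Of all members, the miR-23 twins were the most alike in their values over the arrays. Likeness was measured as the mean absolute difference of log2 signals over the 7 arrays, each miRNA centred on its own mean. By this measure the member closest to miR-23a-3p was its twin miR-23b-3p, at 0.0229, and then miR-27b-3p, at 0.0259. In the same cluster as miR-23a-3p, miR-27a-3p stood at 0.09 and miR-24-2-5p at 0.14. Outside the clusters, miR-107-3p and miR-19b-3p stood about as near to miR-23a-3p as its twin, at 0.0235 and 0.0239. miR-23b-3p stood at 0.036 from miR-27b-3p of its own cluster, at 0.085 from miR-27a-3p and at 0.14 from miR-24-2-5p. For miR-27a-3p the nearest member was miR-24-2-5p of its own cluster, at 0.08, and its twin stood at 0.09. The medians over all tested miRNAs were 0.10 to 0.12 for the members. The arrays and their scaling are shared by all these values, and the probes of near-identical twins may share signal.

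Outside the clusters, miR-107-3p and miR-19b-3p were among the 3 most like miR-23a-3p, miR-23b-3p and miR-27b-3p, from 0.0199 to 0.0403. miR-143-3p completed the 3 for both miR-23 twins and miR-301a-3p did so for miR-27b-3p. The nearest to miR-27a-3p were miR-21-5p at 0.0316, miR-199a-3p at 0.0358 and miR-31a-3p at 0.0390. For miR-24-2-5p they were miR-152-3p at 0.0447, miR-410-3p at 0.0447 and miR-337-3p at 0.0469, of which miR-152-3p rose with IL-6 (log2 fold change 0.19 ± 0.03 SE, limma adjusted p 0.0224). For miR-24-3p they were miR-221-3p at 0.0311, miR-31a-5p at 0.0321 and miR-22-3p at 0.0345. For miR-27a-3p, miR-24-2-5p and miR-24-3p all 3 of these stood nearer than any member, of which the nearest were at 0.0796, 0.0796 and 0.0501. Likewise, miR-27b-3p stood nearer to miR-107-3p, at 0.0199, than to any member.

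Other miRNAs with a known role in the differentiation, growth or wasting of muscle cells were read against the share called over all tested miRNAs. Of 27 such miRNAs 23 were matched on the array, 15 were tested and 8 were detected on no array. miR-181a-5p, which promotes differentiation of mouse myoblasts, rose by 0.31 ± 0.06 (log2 fold change and SE, limma adjusted p 0.0240). It was the 1 of 15 called, and none fell, which is near the 9.39% called over all tested miRNAs (4.97% higher, 4.42% lower) and no result about the list. The median log2 fold change of the 15 was 0.03, against 0.02 over all tested miRNAs, and 7 lay below 0. The other 3 brightest were miR-21-5p at 0.04 ± 0.08, miR-125b-5p at -0.04 ± 0.03 and miR-199a-3p at -0.04 ± 0.08 (log2 fold change and SE), none past the threshold.

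The sign of the small changes depended on the scaling. With spike-in scaling, no scaling or the deposited value table, the middle log2 fold change over the tested miRNAs moved from 0.02 to 0.18, 0.17 and 0.20, and miR-23a-3p, miR-23b-3p, miR-27b-3p and miR-24-3p turned to values of 0.044 to 0.084. Relative to that median these 4 stayed at -0.15 to -0.10 under each of the 3 settings. miR-24-2-5p was above 0 under every scaling, from 0.03 to 0.36, and 0.15 to 0.19 above the median. miR-27a-3p stayed within 0.06 of the median throughout. Under quantile normalization miR-23a-3p read 0.00, because its probe ranked 5th on every array and this method gives equal ranks equal values.

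**Figure D5:**
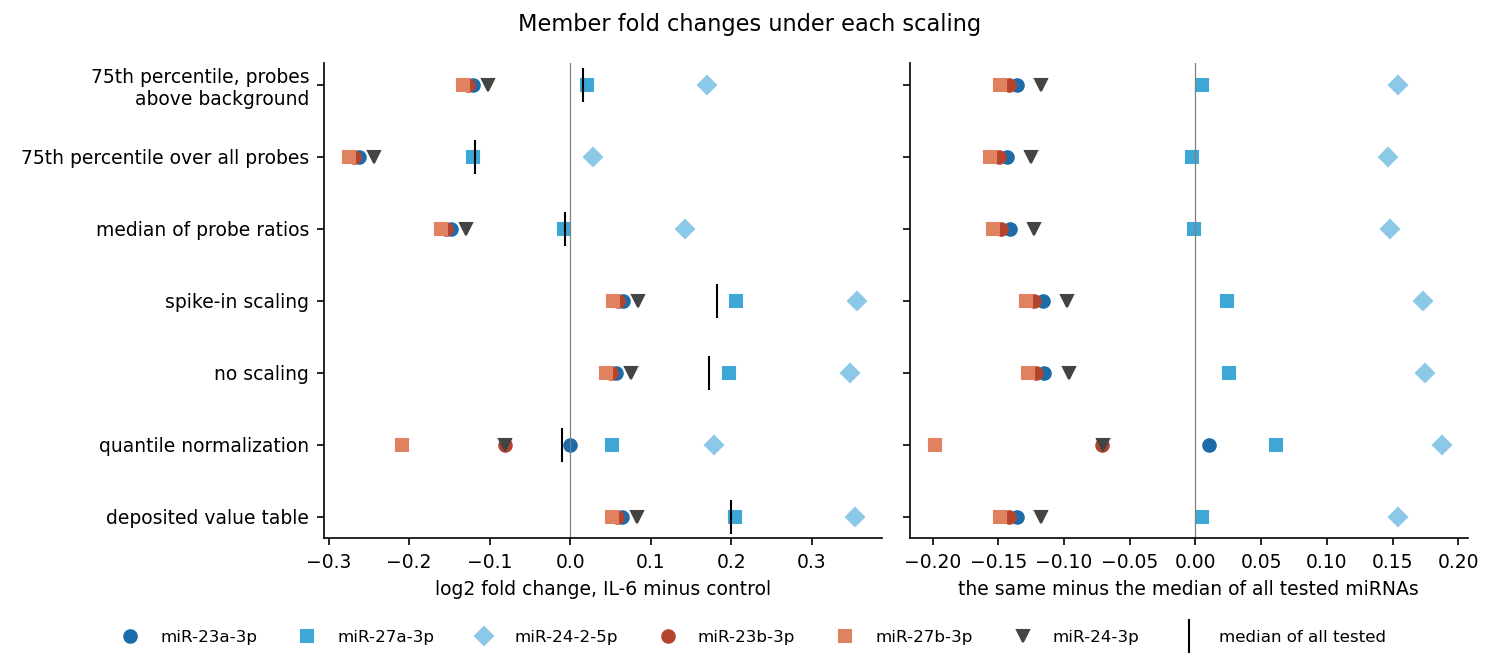
Log2 fold change (IL-6 minus control) of the 6 tested members under 7 settings for scaling and source of values; the left panel gives the fold change with the median of all tested miRNAs as a black line, and the right panel the same minus that median. Left, 4 members cross 0 with spike-in scaling, no scaling and the deposited value table; right, miR-24-2-5p is at 0.15 to 0.19 and miR-27a-3p near 0 in every setting.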

How the data were processed

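Per the file headers, the deposited scanner files were made with Agilent Feature Extraction 10.10.1.1 and hold spot intensity on a linear scale, background-subtracted and not scaled between arrays. The deposited value table equalled its total probe signal (tolerance 0.001). RNA was extracted with a kit that keeps small RNA, per the labels' protocols.

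Control and outlier-flagged spots (2.88% to 3.84%) were left out. The mean over a probe's spots was scaled so that the 75th percentile of 268 probes, those above background throughout, was equal on all arrays (419 to 615 units before). Values under a floor of 15.7 units were set to it, then log2 was taken. A miRNA took its brightest probe and entered the test if either group had it detected throughout. Groups were compared with limma 3.58.1 (R 4.3.3, lmFit and eBayes, Benjamini-Hochberg, threshold 0.05) and twin ratios with exact permutation tests (scipy 1.17.1). The number of arrays limits precision: the median SE was 0.07.

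The named miRNAs were the members, the other arms and neighbour of their hairpins, the 3 most like each member, and the called and 3 brightest others of a muscle list. Members and lists were chosen with earlier results of these data known; miR-155-5p, miR-148a-3p, miR-378a-3p and miR-486-5p were not analysed here. Nerve markers had 2 of 4 tested and none called. On simulated data for 181 miRNAs with 18 changed by 1.5-fold, 90.2% were recovered and 7.77% of calls were false. The simulated noise was independent between arrays. The members' changes, at most 12.5% under the main scaling, were smaller than 1.5-fold, so this recovery does not hold for them. Other scalings, backgrounds, probe summaries, floors, filters, variance models, blocks and left-out arrays were tried; the comparison of twins on 17-base probes and the differences within slide columns were chosen after seeing the data.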

Additional observations from a re-analysis of the deposited data

How the results depend on the processing

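Over all tested miRNAs, 9 were higher and 8 lower with IL-6. These counts became 0 and 0 when all probes set the 75th percentile (1 miRNA with an unadjusted limma p under 0.05), no scaling (29), normexp background (7), the value table (28), no filter (41) and the slide column as a block (52). They were 11 and 14 with the median of probe ratios, 4 and 0 with spike-in scaling (44 at an unadjusted p), 3 and 2 with total gene signal, 6 and 5 with the floor raised 2 times, 29 and 18 with array weights, 1 and 5 with IL-6 replicates 3 and 4 averaged, and 20 and 11 when control replicate 3 and IL-6 replicate 1 were both left out. Leaving out 1 array gave 0 to 10 higher and 0 to 7 lower: 0 and 0 for control replicate 1, 0 and 2 for control replicate 2, 1 and 4 for IL-6 replicate 3, and 1 and 5 for IL-6 replicate 4. With spike-in scaling miR-23a-3p, miR-23b-3p, miR-27b-3p and miR-24-3p turned to 0.066, 0.059, 0.053 and 0.084, with no scaling to 0.057, 0.051, 0.044 and 0.076, and with the value table to 0.064, 0.058, 0.052 and 0.083. miR-27a-3p turned below 0 at -0.12 (percentile of all probes), -0.0073 (median of probe ratios), -0.0083 (outlier spots kept), -0.0081 (IL-6 replicates 3 and 4 averaged), -0.0015 (replicate block), and from -0.048 to 0.10 with 1 array left out (0.165 without both named above). Calls were gained for miR-27b-3p with the median of probe ratios (-0.16, limma adjusted p 0.0410), for miR-24-3p with outlier spots kept (-0.13) and array weights (-0.11), and for miR-24-2-5p with array weights (0.20, limma adjusted p 0.0483). With 1 array left out, the lowest and highest log2 fold changes were -0.15 and -0.07 for miR-23a-3p, -0.17 and -0.07 for miR-23b-3p, -0.16 and -0.10 for miR-27b-3p, -0.12 and -0.09 for miR-24-3p, and 0.09 and 0.25 for miR-24-2-5p. The miR-23 twin difference turned to -0.00020 with normexp background, -0.00014 within slide columns and -0.014 without both of those arrays, was 0.081 with quantile normalization, and ran from -0.0047 to 0.024 with 1 array left out. The miR-27 twin difference ran from 0.11 to 0.21 there. The causes were not tested. Same-numbered samples correlated at 0.52, -0.18 and 0.26, which does not settle whether the numbers pair the samples. The first of these pairs also shared a slide column. With replicate number as a block 0 miRNAs were higher and 3 lower (limma, 45 at an unadjusted p), and no member passed. The twin differences were then 0.02 for miR-23 and 0.16 for miR-27. Signal over background limits miR-24-1-5p and the 14-base and 15-base probes of miR-24-2-5p.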
